A study of Mus musculus with 28 samples.

Results

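Plac8, Tgm2, Csf1, Cst7, Serpina3g, Il9r and Myo3b are 7 mouse genes, of 43430 gene IDs counted, whose RNA differed between regulatory T cells lacking RISP and their wild-type controls in a way that depended on the setting. They were chosen from these same knockout comparisons, for a large change in 1 setting or for opposite changes in the 2 settings. Their knockout values are therefore a description with a standard error and no test. The experiments with respiratory chain inhibitors played no part in the choice and were tested.

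RISP, the Rieske iron-sulfur protein encoded by Uqcrfs1, is a subunit of complex III of the mitochondrial respiratory chain. All libraries came from CD4+ YFP-Foxp3+ CD25+ cells of C57BL/6NJ mice. One knockout experiment compared RISP_KO with RISP_WT cells from 3-week-old mice, 4 libraries each, made with the SMART-Seq v4 and Nextera XT kits. The other compared RISP_Chimera_KO with RISP_Chimera_WT cells, 4 libraries each, from mice 8 to 12 weeks old, made with the NEBNext Ultra kit. The labels do not say how the chimeras were made, which Cre removed Uqcrfs1 or whether cells of several mice were pooled. The third experiment used RISP WT cells of 3-week-old mice in vitro, with 3 libraries each of untreated cells and of cells given 1 µM piericidin, which blocks complex I, 500 µM 3-NPA (3-nitropropionic acid), which blocks complex II, or 1 µM antimycin A, which blocks complex III. These libraries were also made with the NEBNext Ultra kit. Age, library kit and count table differ together between the knockout settings, so their parts in a difference between settings cannot be told apart.

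Regulatory T cells restrain other immune cells and depend on the transcription factor Foxp3. Csf1 encodes M-CSF, a secreted growth factor that macrophages sense through the receptor Csf1r. Il9r encodes the chain that binds interleukin 9, which signals together with the common gamma chain Il2rg through Jak1, Jak3 and STAT proteins. Cst7 (cystatin F) and Serpina3g (Spi2A) are protease inhibitors. Cystatin F acts on cysteine cathepsins inside granules and lysosomes, among them cathepsin C, and Spi2A is an intracellular serpin that inhibits serine proteases and cathepsins. Tgm2 (tissue transglutaminase) crosslinks proteins, Plac8 is a small cysteine-rich protein of leukocytes and epithelia, and Myo3b is a class III myosin that carries a kinase domain.

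Depth ranged from 28446051 to 50769961 counted reads in the libraries of 3-week-old mice, 20437386 to 31019835 in the chimeras and 2707199 to 3445930 in vitro. Levels are given in CPM, the count of a gene scaled to a library of 1000000 counted reads. The targeted gene followed the labels: Uqcrfs1 lay at 5.14 to 7.45 CPM in RISP_KO against 154 to 189 CPM in RISP_WT. In the chimeras its level was 73.5 to 85.9 CPM in wild-type libraries and 4.83 to 11.3 CPM in the knockout. Foxp3 was detected in all 28 libraries, at 24.4 to 38.1 CPM in the libraries of 3-week-old mice, 386 to 508 CPM in the chimeras and 516 to 825 CPM in vitro. The 7 markers of regulatory T cells summed to 3623 to 4175 CPM in the 3-week-old and 3309 to 3723 CPM in the chimeric libraries. In vitro they summed to 6549 to 7434 CPM. Foxp3 is a small part of the sum in the 3-week-old mice, so these sums do not bear on its lower level there. RISP_Chimera_KO replicates 2 and 4 stood apart by markers of other cells, with the highest sums of 12 macrophage and monocyte markers, 76.6 and 96.8 CPM. Nothing in the labels says whether replicates are separate mice or cultures, so p-values measure only the spread between these libraries.

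Promoter sequences are shown for the protease inhibitor genes and Csf1, since Serpina3g, Cst7 and Csf1 were lower together in the chimeric knockout but parted in the 3-week-old mice. Serpina3f, a neighbour of Serpina3g in the same family, is shown beside it. Each window holds 300 bases around the transcription start in RefSeq (build GRCm38.p6), 5′ to 3′ on the strand of the gene. RefSeq promoter entries matched 6 of the 7 genes. Capitals mark a match to TTCNNNGAA, the core of the site that STAT proteins bind (GAS), in the Serpina3 genes, and to TGANTCA, the AP-1 core, in Cst7.
Serpina3g, chr12:104235897-104236196, plus strand: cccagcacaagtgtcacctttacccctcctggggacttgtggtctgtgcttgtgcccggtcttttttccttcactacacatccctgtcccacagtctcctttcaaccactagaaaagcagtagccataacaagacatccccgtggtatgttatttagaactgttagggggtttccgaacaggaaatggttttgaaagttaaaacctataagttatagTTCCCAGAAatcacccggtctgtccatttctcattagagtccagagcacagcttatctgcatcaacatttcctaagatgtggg
Serpina3f, chr12:104214294-104214593, plus strand: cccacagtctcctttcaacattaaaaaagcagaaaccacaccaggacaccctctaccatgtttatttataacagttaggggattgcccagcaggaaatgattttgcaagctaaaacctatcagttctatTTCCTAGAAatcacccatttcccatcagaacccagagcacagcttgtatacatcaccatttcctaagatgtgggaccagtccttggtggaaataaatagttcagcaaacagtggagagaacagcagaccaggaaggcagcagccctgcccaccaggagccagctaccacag
Cst7, chr2:150570165-150570464, plus strand: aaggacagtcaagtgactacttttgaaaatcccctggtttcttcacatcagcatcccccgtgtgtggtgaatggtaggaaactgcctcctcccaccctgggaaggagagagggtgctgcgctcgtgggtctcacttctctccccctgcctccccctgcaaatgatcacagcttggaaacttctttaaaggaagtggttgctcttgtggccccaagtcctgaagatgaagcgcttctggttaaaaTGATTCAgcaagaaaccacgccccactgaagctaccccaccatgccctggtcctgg
Csf1, chr3:107760420-107760719, minus strand: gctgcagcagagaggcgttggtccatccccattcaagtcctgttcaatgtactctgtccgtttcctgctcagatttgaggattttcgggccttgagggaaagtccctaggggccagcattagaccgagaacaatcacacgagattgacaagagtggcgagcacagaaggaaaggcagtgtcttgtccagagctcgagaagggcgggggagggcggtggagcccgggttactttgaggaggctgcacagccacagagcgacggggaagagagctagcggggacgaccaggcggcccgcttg

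The GAS letters TTCCCAGAA begin at -33 from the Serpina3g start, and TTCCTAGAA lies at -121 in the Serpina3f window shown. From another listed start of Serpina3f the same letters lie at -210. The AP-1 letters TGATTCA begin at -6 in Cst7. Of 32851 promoter windows of the same length, 8.3% hold the GAS letters and 7.81% the AP-1 letters on either strand. The ATF4 response motif TGATGNAA is in 3.97% of windows and in 0 of the windows of the 6 genes with an entry. Tgm2 has no entry and was not searched. The Csf1 window holds none of the 3 motifs. These are matches of letters only.

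The genes are scattered over 5 chromosomes of build mm10, and all are protein coding. Plac8 lies at chr5:100553725-100572245, Csf1 at chr3:107741048-107760469, Il9r at chr11:32187541-32200279 and Serpina3g at chr12:104236245-104241939. Chromosome 2 holds Myo3b at chr2:70039126-70429198, Cst7 at chr2:150570415-150578944 and Tgm2 at chr2:158116402-158146436. Tgm2 overlaps Rprd1b and Gm20412 on the opposite strand, and no source used here says whether counting used strand, so reads in the overlap cannot be assigned with certainty. Serpina3g belongs to a family of near copies. Of its 50-base stretches, 15.5% also occur in transcripts of 7 other genes, 8.89% in Serpina3h, so its counts carry that uncertainty. For Myo3b 3.59% of stretches are shared, mostly with Gm17867, and for Il9r 0.116%. Plac8, Tgm2, Csf1 and Cst7 share none.

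In regulatory T cells of 3-week-old mice, loss of RISP went with higher RNA of Plac8, Tgm2, Cst7 and Csf1, with lower RNA of Il9r and Myo3b, and with similar levels of Serpina3g. The groups did not overlap for the first 6, of which 4 were higher and 2 lower in the knockout. Among all 13832 genes tested, 17.0% had groups without overlap, 6.94% higher and 10.1% lower, and 9.86% passed an adjusted p of 0.05. In the chimeras all 7 genes were level or lower. Csf1, Cst7, Serpina3g and Myo3b were lower without overlap, where 3.53% of 14399 genes were lower without overlap and 0.708% passed the test in either direction. Since these contrasts chose the genes, the counts describe the choice. In bulk RNA, fewer cells of a type and less RNA per cell cannot be told apart.

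**Figure D1:**
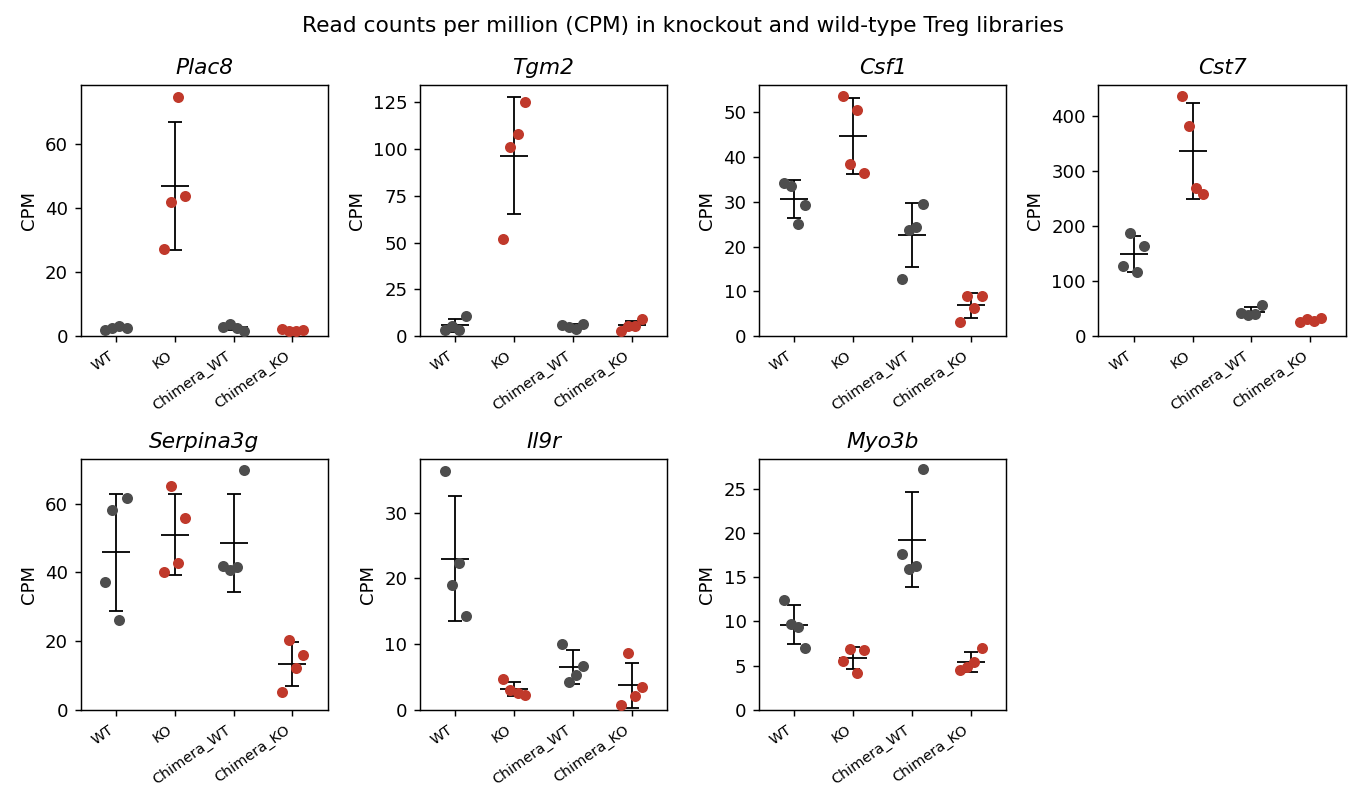
Level of each gene in CPM (vertical axis, from 0, a separate scale per gene) in every library of the 4 knockout groups; each point is 1 library, the horizontal bar is the group mean and the whiskers reach 1 SD to either side. Plac8 and Tgm2 are high in RISP_KO alone, while Csf1, Serpina3g and Myo3b are lowest in RISP_Chimera_KO or in both knockouts.

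Csf1 was measured at 34.2, 33.5, 25.1 and 29.3 CPM in the RISP_WT libraries and at 53.6, 38.5, 50.5 and 36.4 CPM in RISP_KO. In the chimeras it stood at 12.7, 23.7, 24.3 and 29.6 CPM in wild-type and at 3.26, 8.97, 6.19 and 9.06 CPM in knockout libraries. So every knockout library was above every control in the first setting and below every control in the other. The log2 fold change was 0.56 ± 0.15 in the younger mice and -1.74 ± 0.30 in the chimeras (SE, 4 libraries per group here and for the genes that follow), 1.47-fold higher and 3.35-fold lower. The change in the chimeras minus that in 3-week-old mice was -2.33 ± 0.37 on the log2 scale.

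Il9r, the interleukin 9 receptor chain, was at 36.4, 19.0, 22.4 and 14.3 CPM in RISP_WT and at 4.64, 2.95, 2.58 and 2.28 CPM in RISP_KO. All controls were above all knockout libraries. In the chimeras the groups overlapped, at 10.1, 4.24, 5.25 and 6.60 CPM in wild-type and 0.724, 8.63, 2.05 and 3.46 CPM in knockout libraries. The log2 fold changes were -2.88 ± 0.32 and -0.83 ± 0.54, and Il9r ranked 51st from the bottom of the 13832 genes in the 3-week-old mice. The chimeric value turns on replicate 2 of the knockout, the library at 8.63 CPM. That library also had the most remaining Uqcrfs1, 11.3 CPM, whose part was not tested. Without replicate 2 the chimeric log2 fold change was -1.67. Without replicates 2 and 4, the libraries with most macrophage markers, it was -2.23 ± 0.45. The gap between the settings went from 2.02 ± 0.68 to 1.20 and 0.65. Replicates 2 and 4 also had the most Il9r among the knockout libraries, so these shifts followed from leaving them out.

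Cst7, cystatin F, had 127, 188, 117 and 164 CPM in RISP_WT and 437, 382, 269.7 and 259 CPM in RISP_KO. In the chimeras it had 42.0, 38.9, 40.8 and 56.3 CPM in wild-type and 25.0, 31.2, 27.6 and 32.4 CPM in knockout libraries. As for Csf1, the knockout was above all controls in the younger mice and below all of them in the chimeras. The log2 fold changes were 1.19 ± 0.18 and -0.63 ± 0.12, 2.28-fold higher and 1.55-fold lower, and differed between settings by -1.84 ± 0.23. Per kilobase of the deposited gene length, Cst7 was the most abundant of the 7 genes, at 341 ± 87.9 CPM per kb (SD, n = 4) in RISP_KO. Csf1 was at 3.22 ± 0.614 CPM per kb (SD, n = 4) in the same libraries. The deposited length was 986 bases for Cst7 and 13902 bases for Csf1. Their annotated transcripts hold only 937 and 5326 different 50-base stretches, so this scale overstates the gap between them.

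Serpina3g, the Spi2A serpin, was at 37.2, 58.2, 26.1 and 61.7 CPM in RISP_WT and at 40.2, 65.2, 42.6 and 55.8 CPM in RISP_KO, 2 overlapping groups. In the chimeras the groups were far apart, with 42.0, 40.7, 41.7 and 69.8 CPM in wild-type and 5.16, 20.3, 12.1 and 15.99 CPM in knockout libraries. Every chimeric wild-type library was above every chimeric knockout library. Its log2 fold change was -1.88 ± 0.31 there, 3.68-fold lower, against 0.17 ± 0.25 in the younger mice, whose sign changed when 1 library was left out (range -0.02 to 0.34). Serpina3g ranked 35th from the bottom of 14399 genes in the chimeras.

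Myo3b, the class III myosin, was the 1 gene of the 7 that was lower without overlap in both knockouts. It stood at 12.4, 9.68, 9.37 and 6.97 CPM in RISP_WT against 5.47, 6.93, 4.19 and 6.78 CPM in RISP_KO, where the nearest libraries of the 2 groups almost touched. In the chimeras it stood at 17.6, 15.9, 16.3 and 27.2 CPM in wild-type against 4.51, 4.82, 5.39 and 6.99 CPM in knockout libraries. The log2 fold changes were -0.71 ± 0.23 and -1.84 ± 0.20, a difference of -1.15 ± 0.31. The knockouts stood at 5.87 ± 1.33 CPM (SD, n = 4) and 5.38 ± 0.996 CPM (SD, n = 4). Their controls were at 9.57 ± 2.25 CPM and 19.3 ± 5.08 CPM (SD, n = 4 each). The tables were made from separate libraries and kits, so levels in one cannot be set against those in the other.

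Plac8 was almost silent in 3 of the 4 groups. It had 1.78, 2.48, 3.18 and 2.44 CPM in RISP_WT, 66 to 124 reads, and 27.3, 42.0, 74.8 and 43.7 CPM in RISP_KO, 954 to 2692 reads. In the chimeras it had 2.69, 3.82, 2.55 and 1.74 CPM in wild-type and 2.27, 1.55, 1.70 and 2.03 CPM in knockout libraries. The log2 fold change in 3-week-old mice, 4.26 ± 0.32 or 19.2-fold, was the 6th highest of 13832 genes. In the chimeras it was -0.54 ± 0.32, and the difference between settings, -4.82 ± 0.42, was the widest of the 7 genes.

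Tgm2, the transglutaminase, followed the same course at a somewhat higher level. It was at 3.40, 5.38, 3.15 and 11.0 CPM in RISP_WT and at 51.9, 101, 108 and 125 CPM in RISP_KO. The chimeric groups overlapped, with 6.12, 4.86, 3.77 and 6.70 CPM in wild-type and 2.80, 5.54, 5.63 and 9.03 CPM in knockout libraries. Its log2 fold change was 4.08 ± 0.42, or 16.9-fold and the 10th highest, in the younger mice and 0.08 ± 0.30 in the chimeras. The difference was -4.01 ± 0.54.

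**Figure D2:**
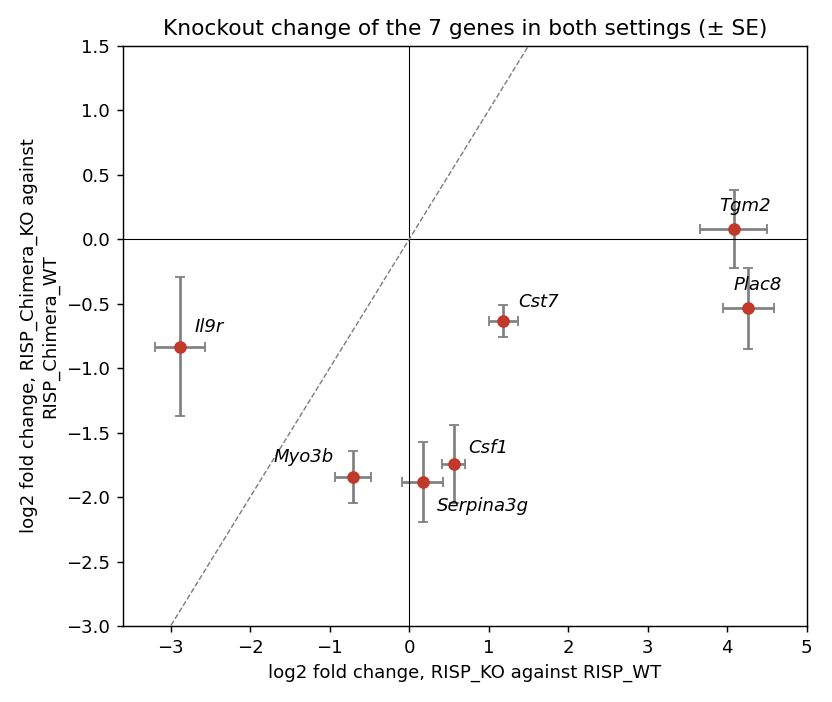
Log2 fold change of each of the 7 genes in RISP_KO against RISP_WT (horizontal axis) and in RISP_Chimera_KO against RISP_Chimera_WT (vertical axis), with bars of 1 SE to either side. Plac8 (4.26, -0.54) and Tgm2 (4.08, 0.08) lie far right near the zero line, Csf1 and Cst7 lie right of zero and below it, and Il9r and Myo3b are below zero on both axes.

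Some sums of markers of other cell types moved with the knockout in the 3-week-old mice, and their part in these values was not tested. The 12 macrophage and monocyte markers summed to 7.59 to 14.7 CPM in RISP_KO against 16.4 to 48.4 CPM in RISP_WT, with Fcgr1 at 0 in the knockout and 4 markers past the test, all lower. The 6 natural killer cell markers summed to 12.7 to 21.5 CPM against 3.83 to 7.20 CPM, but 4 of them, Klra4, Klra8, Klre1 and Ncr1, were at 0 in RISP_KO. Most of that sum was Eomes, a T-box factor that T cells also use, at 8.05 to 19.2 CPM against 0.809 to 2.97 CPM (edgeR adjusted p = 0.00107). The 6 plasma cell markers summed to 349 to 431 CPM against 187 to 252 CPM, with Tnfrsf17 at 0 in both. Sums of the 7 plasmacytoid dendritic cell markers were 193 to 304 CPM against 126 to 174 CPM. The 9 endothelial and fibroblast markers summed to 99.7 to 118 CPM against 161 to 167 CPM. Untreated cultured cells had such sums too, although some markers of each list were at 0. Their plasma cell markers summed to 184 to 191 CPM (Jchain, Mzb1 and Tnfrsf17 at 0). Plasmacytoid markers summed to 198 to 222 CPM there (Cox6a2 and Klk1 at 0). Endothelial and fibroblast markers summed to 58.4 to 84.7 CPM (Cdh5, Col3a1, Dcn, Kdr, Pdgfra and Pdgfrb at 0). Jchain and Mzb1 did have reads in RISP_KO. The cultured libraries differ from those of RISP_KO in depth and kit, and how much RNA of other cell types these sums hold was not tested. The 8 conventional dendritic cell markers summed to 4.44 to 10.3 CPM against 10.7 to 19.6 CPM, with Cd209a and Clec9a at 0 in the knockout. Of 7 measured B cell markers 2 fell, Cd79b and Igkc, and 0 rose (6 lower and 1 higher at an unadjusted p under 0.05, 4 lower and 1 higher by DESeq2), with a median log2 fold change of -1.25. Their sums overlapped narrowly, at 571 to 798 CPM against 781 to 985 CPM, and most of each sum was Ighm. Sums of the 2 CD8 T cell markers also overlapped.

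In the chimeras the macrophage and monocyte sums overlapped, 30.8 to 96.8 CPM in knockout against 24.3 to 66.4 CPM in wild-type libraries. Sums of 7 mast cell and basophil markers were 4.74 to 9.13 CPM against 3.30 to 3.62 CPM, with 4 of the markers at 0 in both groups, and those of 7 plasmacytoid dendritic cell markers 110 to 134 CPM against 108 to 109 CPM. Leaving out knockout replicates 2 and 4 moved the difference of Csf1 and Serpina3g from the 3-week-old setting to -2.84 and -2.67. Those replicates had the highest levels of both genes among the chimeric knockout libraries, so larger falls followed from leaving them out. RISP_Chimera_WT replicate 1, with a macrophage and monocyte sum of 66.4 CPM, was kept.

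The molecules these genes act with were taken from lists of partners by their roles, written with earlier results of these data known, and were tested in both knockouts. Over all genes, 9.86% were called in RISP_KO and 0.708% in the chimeric knockout. Of 13 measured genes of the interleukin 9 receptor and common gamma chain list, 7 rose and 0 fell in RISP_KO by edgeR and by DESeq2 (9 and 1 at an unadjusted p under 0.05), with a median log2 fold change of 0.44 against 0.00 over all genes. Il4ra rose by 0.83 ± 0.06 (edgeR adjusted p = 6.24e-05), Il2ra, the CD25 chain used in the sort, by 0.59 ± 0.10 (adjusted p = 0.00441) and Stat5a by 0.46 ± 0.09 (adjusted p = 0.00978). Il2rg itself, the partner chain of Il9r, was at 993 CPM in RISP_KO and 965 CPM in RISP_WT on average (log2 fold change 0.04 ± 0.09, adjusted p = 0.833). No read of Il9, the ligand, was counted in any of the 28 libraries. In the chimeras 1 of the 13 passed, Il7r, which fell by 0.59 ± 0.12 (adjusted p = 0.0477). That call was lost in 8 of 15 alternatives (adjusted p up to 0.135).

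The next list holds cathepsins and legumain, only some of which are proteases that cystatin F can inhibit, with other cystatins. Of 16 measured cystatins, cathepsins and legumain, 0 rose and 4 fell in RISP_KO by edgeR and by DESeq2 (1 and 4 at an unadjusted p under 0.05), with a median log2 fold change of -0.16. Ctsh fell by 3.48 ± 0.40 (adjusted p = 0.000457) and Lgmn by 1.04 ± 0.22 (adjusted p = 0.0147). Ctsw fell by 0.49 ± 0.11 (adjusted p = 0.0204), with calls lost for Lgmn in 2 and for Ctsw in 3 of 14 alternatives, each without 1 control library. Ctsc, cathepsin C, had a log2 fold change of -0.14 ± 0.14 (adjusted p = 0.576) and Ctsl one of -0.13. In the chimeras 0 of the 16 passed by edgeR or DESeq2, and 4 had an unadjusted p under 0.05, 2 in each direction.

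Of 9 measured serpins 3 rose and 1 fell in RISP_KO. Serpinb6b rose by 0.64 ± 0.10 (adjusted p = 0.00378) and Serpinb9, an inhibitor of granzyme B, by 0.93 ± 0.18 (adjusted p = 0.00932), whereas Serpinb1a fell by 2.28 ± 0.46 (adjusted p = 0.0109). Serpina3f, the neighbour of Serpina3g, was at 2.55, 6.71, 6.50 and 8.02 CPM in RISP_KO and 0.783, 1.79, 2.42 and 2.62 CPM in RISP_WT. It rose by 1.66 ± 0.42 (adjusted p = 0.0302), although 1 knockout library lay within the controls and the call was lost in 6 of 14 alternatives. In the chimeras its log2 fold change was -0.85 ± 0.37 (adjusted p = 0.359), so neither gene of the pair was higher there. Of 8 measured serpins 0 passed in the chimeras by edgeR or DESeq2, and 3 were lower at an unadjusted p under 0.05.

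Csf1r, the receptor of the Csf1 product and itself one of the macrophage markers, fell by 2.99 ± 0.67 in RISP_KO (adjusted p = 0.0177), from 5.62 to 0.695 CPM on average. The call was lost without RISP_WT replicate 3, the library with most Csf1r (-2.44, adjusted p = 0.0587). In the chimeras Csf1r had a log2 fold change of 0.53 ± 0.40 (adjusted p = 0.633). Among 3 other measured transglutaminase genes, F13a1, a factor XIII subunit made by monocytes, fell by 4.48 ± 0.83 in RISP_KO (adjusted p = 0.00724), and 0 rose. Of 19 measured unconventional myosins and espins 1 rose and 3 fell. Myo6 rose by 1.12 ± 0.22 (adjusted p = 0.00993), and Myo1f fell by 1.99 ± 0.27 (adjusted p = 0.00131). Myo3a, the other class III myosin, had at most 0.0352 CPM in any library. None of the Plac8 domain genes was abundant enough to test.

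Of 22 measured effector and memory genes of T cells, 2 rose and 8 fell in RISP_KO, with a median log2 fold change of -0.54, where 661 of 13832 genes rose and 703 fell. The sums of macrophage and conventional dendritic cell markers were also lower in RISP_KO, as were 2 B cell markers, and their part was not tested. The largest rise in the list was that of Gzma, granzyme A, at 49.9, 40.3, 21.9 and 25.8 CPM in RISP_KO against 0.729, 0.527, 1.20 and 2.07 CPM in RISP_WT. It rose by 4.90 ± 0.42 (adjusted p = 0.000126), about as steeply as Plac8 and Tgm2. Klrg1, an inhibitory lectin receptor of terminally differentiated T cells, fell by 3.68 ± 0.45 (adjusted p = 0.000701), and Anxa2 by 1.12 ± 0.19 (adjusted p = 0.00388). In the chimeras 1 of 21 measured passed, Il18r1, which fell by 1.00 ± 0.11 (adjusted p = 0.00165).

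The inhibitors were applied to wild-type cells in vitro. Serpina3g was the 1 gene that passed the test against untreated cells, with the complex I inhibitor piericidin. Of the 6 genes with enough reads, 1 was called with piericidin, where 13.6% of 11689 genes were called. With 3-NPA, where 3.23% were called, and with antimycin A, where 15.0% were called, 0 of the 6 passed by edgeR's quasi-likelihood test. At an unadjusted p under 0.05 the count was 1 with each, Myo3b with 3-NPA and Cst7 with antimycin A, and DESeq2 called 0 in both. With 6 genes, counts of 1 and 0 are near the shares over all genes and say nothing particular about these genes.

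**Figure D3:**
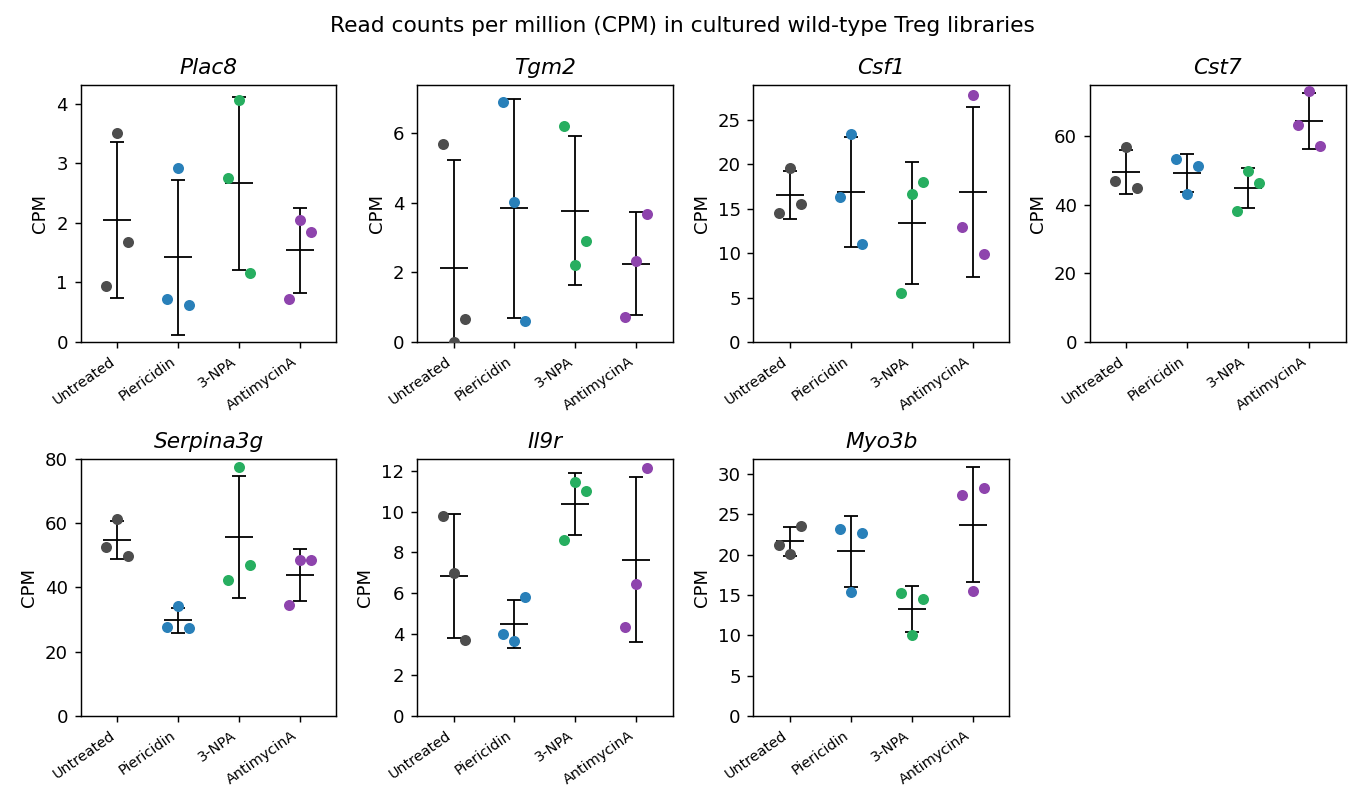
Level of each gene in CPM (vertical axis, from 0, a separate scale per gene) in untreated cells and with each inhibitor; each point is 1 library of 3 per group, the horizontal bar is the group mean and the whiskers reach 1 SD to either side. Serpina3g with piericidin (27.3 to 34.3 CPM) lies below the untreated libraries (49.9 to 61.3 CPM), and Plac8 and Tgm2 stay under 7 CPM throughout.

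Serpina3g was at 52.8, 61.3 and 49.9 CPM in untreated cells, 27.6, 34.3 and 27.3 CPM with piericidin, 42.5, 77.6 and 47.0 CPM with 3-NPA, and 34.6, 48.6 and 48.6 CPM with antimycin A. All piericidin libraries were below all untreated and all 3-NPA libraries. The highest with piericidin, at 34.3 CPM, nearly touched the lowest with antimycin A, at 34.6 CPM. Among all genes, 14.3% were lower without overlap with piericidin than in untreated cells, and 12.0% lower than with 3-NPA. With piericidin Serpina3g fell by 0.90 ± 0.21 on the log2 scale (SE, n = 3 per group, edgeR adjusted p = 0.00234), a 1.87-fold decrease that was called in all 13 alternatives (adjusted p 0.00032 to 0.0214). With antimycin A its 3 libraries were also below the untreated ones, as for 14.6% of genes, but the log2 fold change of -0.34 ± 0.20 did not pass (adjusted p = 0.294). With 3-NPA the log2 fold change was -0.02 ± 0.20 (adjusted p = 0.978).

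Compared with each other, piericidin gave less Serpina3g than 3-NPA, by -0.89 ± 0.21 (adjusted p = 0.00905), in a contrast where 4.29% of genes were called. That call was lost without 3-NPA replicate 2, the library at 77.6 CPM (-0.58, adjusted p = 0.139), and without piericidin replicate 3 (-0.83, adjusted p = 0.0618). Antimycin A and piericidin did not differ by the test, 0.57 ± 0.21 (adjusted p = 0.280), in a contrast where 0.736% of genes were called. The 95% interval of that difference, 0.15 to 0.98, spans from a small to a nearly 2-fold difference, so the 2 inhibitors were not shown to act alike. Piericidin was thus set apart from untreated and 3-NPA cells by the test, and not from antimycin A.

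Cst7 was at 47.1, 56.9 and 44.9 CPM in untreated cells and at 63.4, 73.2 and 57.0 CPM with antimycin A, without overlap. The log2 fold change of 0.36 ± 0.17 did not pass (adjusted p = 0.173), in a contrast where 16.9% of all genes were higher without overlap. Against 3-NPA, with 38.3, 49.9 and 46.4 CPM, antimycin A gave 0.54 ± 0.17 more (adjusted p = 0.0688), which passed with DESeq2 alone (adjusted p = 0.0221). In that contrast 3.98% of genes were called. With piericidin Cst7 stood at 53.4, 43.1 and 51.3 CPM, within the untreated range on average.

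Myo3b was at 21.2, 20.1 and 23.6 CPM in untreated cells and at 15.2, 9.97 and 14.5 CPM with 3-NPA, below all controls. The log2 fold change of -0.74 ± 0.29 did not pass (adjusted p = 0.167), where 9.36% of genes were lower without overlap. It was at 23.3, 15.3 and 22.7 CPM with piericidin and 27.4, 15.5 and 28.3 CPM with antimycin A, which overlapped the controls. Antimycin A gave 0.84 ± 0.29 more than 3-NPA (adjusted p = 0.0955), a difference that passed with DESeq2 (adjusted p = 0.0470) and without antimycin A replicate 2 (1.07, adjusted p = 0.0437).

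Csf1 was at 14.5, 19.6 and 15.5 CPM in untreated cells, and its groups overlapped with every inhibitor, from 5.52 to 27.8 CPM. Its log2 fold changes were 0.00 ± 0.37 with piericidin, -0.34 ± 0.37 with 3-NPA and 0.02 ± 0.37 with antimycin A. The 95% interval with antimycin A, -0.70 to 0.74, takes in the rise seen in RISP_KO and leaves out the fall seen in the chimeric knockout. Il9r was at 9.79, 7.01 and 3.71 CPM in untreated cells and at 4.32, 6.44 and 12.1 CPM with antimycin A. Its log2 fold change was 0.13 ± 0.49 (95% interval -0.84 to 1.09), which leaves out a fall as deep as that in RISP_KO. Il9r with piericidin, at 4.00, 3.65 and 5.83 CPM, lay below 3-NPA, at 8.63, 11.5 and 11.0 CPM, without passing (-1.17 ± 0.50, adjusted p = 0.199).

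Plac8 and Tgm2, the genes with the steepest rise in the 3-week-old knockout, were near the limit of detection in vitro. Plac8 had 2 to 12 reads per library, under the filter on low counts. It was listed at 0.948, 3.50 and 1.69 CPM untreated and at 0.721, 2.05 and 1.84 CPM with antimycin A. Tgm2 had 0 to 19 reads, at 5.69, 0 and 0.675 CPM untreated and 0.721, 2.34 and 3.68 CPM with antimycin A. Its log2 fold change with antimycin A was 0.06 ± 0.95, with a 95% interval of -1.80 to 1.92. These values rest on untreated replicate 1, the library at 5.69 CPM. Without it the log2 fold changes of Tgm2 were 3.40 with piericidin, 3.37 with 3-NPA and 2.65 with antimycin A. None of them was called (edgeR adjusted p 0.104, 0.221 and 0.236), and the untreated libraries left, at 0 and 0.675 CPM, were at the floor. With all libraries the 95% intervals ended at 2.59, 2.56 and 1.92 in the same order, below the 4.08 of RISP_KO. Since these limits rest on 1 library, whether a rise as steep as that in RISP_KO was absent cannot be told at this depth. With no filter, the log2 fold changes of Plac8 were -0.56 ± 1.07 with piericidin, 0.32 ± 1.03 with 3-NPA and -0.42 ± 1.06 with antimycin A, none of them called. Smaller changes of either gene were not detectable at this depth.

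**Figure D4:**
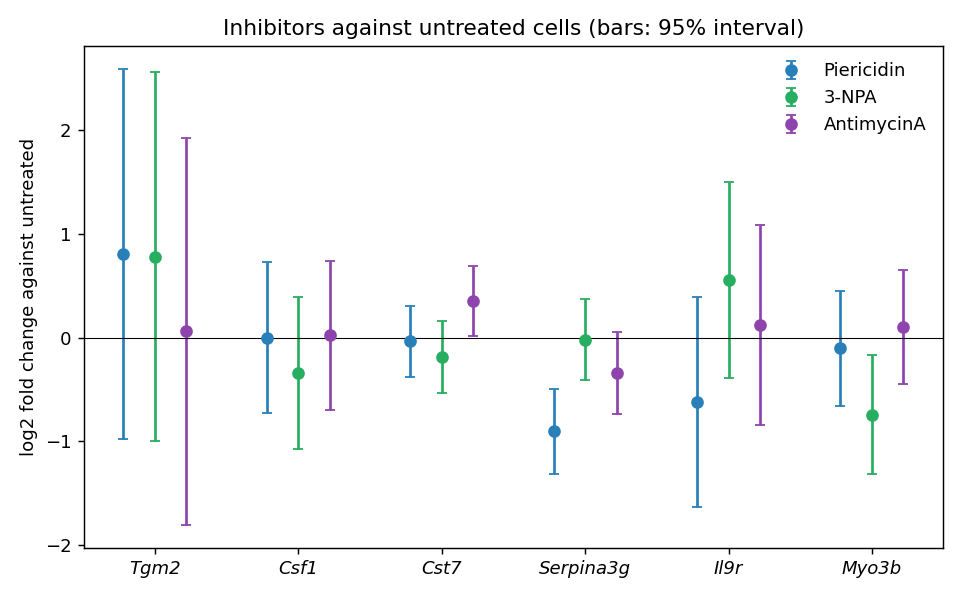
Log2 fold change against untreated cells (vertical axis) of the 6 genes with enough reads in vitro, for piericidin, 3-NPA and antimycin A (colours); bars reach 1.96 SE to either side. Serpina3g with piericidin (-0.90) is the 1 value called by edgeR, and the bars of Tgm2 are the widest.

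Several partners of these genes did respond in vitro. Il7r, a common gamma chain receptor, rose with each inhibitor, by 0.74 ± 0.13 with piericidin (adjusted p = 0.000107), 0.54 ± 0.13 with 3-NPA (adjusted p = 0.0141) and 1.20 ± 0.13 with antimycin A (adjusted p = 1.12e-08). Its call with 3-NPA was lost in 3 of 13 alternatives. Of the 13 measured genes of this list, 3 rose with piericidin, 1 with 3-NPA and 4 with antimycin A. Over all genes, 13.6%, 3.23% and 15.0% were called in the same order, in either direction. With antimycin A Il2ra fell by 0.32 ± 0.07 (adjusted p = 0.00102). Il2rg rose with antimycin A by 0.39 ± 0.09 (adjusted p = 0.00269).

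Of 13 measured cystatins, cathepsins and legumain, 4 rose and 1 fell with piericidin, 2 rose with 3-NPA, and 5 rose and 1 fell with antimycin A. The shares over all genes were again 13.6%, 3.23% and 15.0%. Ctse rose by 1.41 ± 0.35 with piericidin (adjusted p = 0.00473) and by 1.57 ± 0.35 with antimycin A (adjusted p = 0.00116). Ctsl rose with all 3 inhibitors, by 1.33 ± 0.44, 1.67 ± 0.44 and 1.62 ± 0.44 in the order piericidin, 3-NPA and antimycin A (adjusted p = 0.0376, 0.0235 and 0.00728). These calls were lost in 7, 4 and 2 of 13 alternatives. Ctsc, the protease most closely tied to cystatin F, was at 94.5 ± 12.0 CPM (SD, n = 3) untreated and 81.0 ± 2.07 CPM (SD, n = 3) with antimycin A (adjusted p = 0.326).

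Myo6 rose with 3-NPA by 1.02 ± 0.22 (adjusted p = 0.00488) and with antimycin A by 1.11 ± 0.22 (adjusted p = 0.000260), both called in all 13 alternatives, and had a log2 fold change of 0.35 ± 0.22 with piericidin (adjusted p = 0.349). In the chimeric knockout its log2 fold change was 0.08 ± 0.27 (adjusted p = 0.934). Of the 17 measured effector and memory genes Gzmb, granzyme B, rose with piericidin by 1.09 ± 0.21 (adjusted p = 0.000324) and with antimycin A by 0.92 ± 0.21 (adjusted p = 0.00175). Ly6a fell by 1.41 ± 0.19 with piericidin (adjusted p = 1.13e-06) and by 0.94 ± 0.18 with 3-NPA (adjusted p = 0.00166). Of 5 measured serpins 0 passed against untreated cells with any inhibitor by edgeR or DESeq2, and 1 had an unadjusted p under 0.05 with each. The 1 measured transglutaminase and the 2 measured colony-stimulating factor genes did not pass either, also unadjusted.

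The genes most like each of the 7 across all 28 libraries were found by the Pearson correlation of log2 CPM, centred within each count table, among 10082 genes. This is a description, since libraries of a group share their treatment and kit and the knockout contrasts that chose the 7 genes enter it. Within the tables the values varied: Ttc39c had r = -0.28 with Il9r in vitro, Pros1 had r = 0.05 with Cst7 in vitro, and Lhfp and Il18bp had r = -0.46 and 0.00 with Tgm2 in the chimeras. Crmp1 and Myo3b had r = 0.86 in vitro, 0.88 in 3-week-old mice and 0.92 in the chimeras. Crmp1 was nearest to Myo3b (r = 0.89), followed by Maf (0.79) and Ccr2 (0.79). Cpe, a carboxypeptidase, was nearest to Serpina3g (r = 0.86), followed by Slc39a4 (0.79) and Ebi3 (0.78). S100a11 and Angptl2 (both r = 0.84) and Ttc39c (0.83) were nearest to Il9r, and Pros1 (0.84), Sdf4 (0.80) and the decoy receptor Il1r2 (0.79) to Cst7. Il1r2 was also among the nearest 3 of Csf1 (0.73), with Tiam1 (0.76) and Itgae (0.74). Tgm2 was nearest to Lhfp (0.83), Ston1 (0.81) and Il18bp (0.80). Plac8 had too few reads in vitro to be placed.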

How the data were processed

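RNA-seq was deposited as tables of counts per gene for 28 libraries in 8 groups. Per the submitters' processing notes, bcl2fastq, TopHat, the mm10 build, HTSeq and edgeR were used; versions and the strand setting are not given in the sources used here. The deposited values are whole-number counts, not normalized, with gene lengths in bases alongside. One further table with 11 columns that no label matches was not used.

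The 7 genes and all lists were chosen with earlier results of these data known. edgeR 4.0.16 (R 4.3.3, limma 3.58.1) kept genes by filterByExpr, scaled by TMM and tested with the quasi-likelihood test, 1 fit per knockout table and 1 for the 12 in vitro libraries. P-values were adjusted by Benjamini-Hochberg over all genes tested, with calls under 0.05. The prior count behind log2 fold changes was 0.125. Standard errors derive from the F statistic, and 95% intervals are 1.96 SE. The difference of knockout effects comes from 1 fit of 16 libraries. CPM values are counts scaled to 1000000 counted reads in each library. The code was tested on simulated data.

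The text names the 7 genes, Uqcrfs1 and Foxp3, up to 3 called genes with the smallest p of each partner list in each comparison, the partners needed to read a member (Csf1r, Il9, Il2rg, Serpina3f, Myo3a, Ctsc, Ctsl), and the 3 genes most like each member. Eomes and the other cell type markers come from the marker lists. Alternatives were RLE factors, DESeq2 1.42.0, other filters on low counts, a prior count of 2, fits of only the groups compared, a replicate block and leaving out each library. Leaving out RISP_Chimera_KO replicates 2 and 4, and the alternatives for partner genes, were chosen after seeing the data.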

Additional observations from a re-analysis of the deposited data

Results flagged for a closer look

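Within the chimeric wild-type group, replicate 4 stood far above the other 3 libraries for 2 of the 7 genes. It had 69.8 CPM of Serpina3g, where the others had 40.7 to 42.0 CPM, and 27.2 CPM of Myo3b, where the others had 15.9 to 17.6 CPM. In all, 36 groups of 4 values were examined over 9 genes and 2 were marked in this way. Chance gives about 1 in 20 for independent groups. These groups share their libraries, and both marks fell on the same library, so the count cannot be read against that share. Without that library both genes were still lower in the chimeric knockout, and the groups stayed apart.

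Csf1 and Cst7 moved in opposite directions in the 2 knockout settings, with every knockout library above every control in 3-week-old mice and below every control in the chimeras. The log2 fold changes were 0.56 and -1.74 for Csf1 and 1.19 and -0.63 for Cst7. The genes were chosen for such opposite changes, and the difference was not tested.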

How the results depend on the processing

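No direction of a called value changed under any alternative run. Serpina3g stayed called with piericidin against untreated cells throughout. Over the in vitro changes of the 6 genes with enough reads, 456 of the alternative values kept their side of the threshold, 3 gained a call and 2 lost one. Over the partner genes, 580 kept their call and 54 lost it. Tgm2 in vitro moved most, from 0.81 to 3.40 with piericidin, 0.78 to 3.37 with 3-NPA and 0.06 to 2.65 with antimycin A without untreated replicate 1. Il9r in the chimeras went from -0.83 to -2.23 without knockout replicates 2 and 4, the knockout libraries with most Il9r.

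The number of genes called depended more on the processing. In RISP_KO it was 1364, with 895 under the replicate block, 2148 by DESeq2 and 787 to 1486 without 1 library. In the chimeras it was 102, with 208 without a filter, 436 by DESeq2, 247 without knockout replicates 2 and 4, and 33 to 177 without 1 library. DESeq2 called 672 genes with 3-NPA against untreated cells, where edgeR called 377, 203 (86) for antimycin A against piericidin, 788 (465) for antimycin A against 3-NPA and 820 (502) for piericidin against 3-NPA. Without 1 library the counts were 130 to 295, 43 to 75, 188 to 454 and 230 to 409 in the same order, 1009 to 1421 for piericidin and 1261 to 1613 for antimycin A against untreated cells. The cause of these shifts was not tested.

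Libraries of the same number did not consistently vary together in 3-week-old mice or the chimeras (correlations of their deviations -0.25 to 0.04 and -0.30 to 0.40). In vitro these correlations were small, but none was below 0 (0.00 to 0.11). Those of different numbers ran from -0.11 to 0.06 in vitro, so a small part shared by number cannot be set aside there. The main fits did not take the numbers as pairs. A replicate block was run as an alternative, under which Serpina3g with piericidin stayed called against untreated cells. The in vitro libraries hold at most 3445930 reads, and Plac8 and Tgm2 have 19 reads or fewer in each. Intervals cover the spread between libraries of 1 experiment.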
